A study of Mus musculus with 2 samples.

Results

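The Hippo pathway genes described here are 10 genes of the newborn mouse heart, taken by symbol from the 43346 genes of the deposited tables. They are the kinase gene Stk3 and its scaffold Sav1, the kinase genes Lats1 and Lats2, the coactivator genes Yap1 and Wwtr1, and the transcription factor genes Tead1, Tead2, Tead3 and Tead4. All 10 were found. The series held 1 group, healthy hearts of both sexes pooled on postnatal day 0, from mice whose strain is given as B6NTac;B6NCrl/Lap, with no transgene or treatment named. There were 2 biological replicates from independent tissue isolates under 1 donor label, of which replicate 1 pooled 15 mice and replicate 2 an unstated number. RNA above 200 nucleotides was depleted of ribosomal RNA and read as stranded pairs of 101 nucleotides, and genes received 69946215 expected counts in replicate 1 and 73615802 in replicate 2. With 1 group there was no comparison between conditions and no p-value, so values are given for each replicate, or as mean ± SD with n = 2, and the spread is that between these 2 isolates.

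In the Hippo pathway, the kinase MST2, made from Stk3, binds the scaffold SAV1 and activates the LATS kinases. These phosphorylate YAP, made from Yap1, and its relative TAZ, made from Wwtr1, which are then held in the cytoplasm or degraded. Unphosphorylated YAP and TAZ enter the nucleus and work through TEAD proteins, which bind DNA by their TEA domain. In mice the pathway limits cardiomyocyte proliferation, and YAP activity is needed for growth of the fetal and newborn heart. The measurements here are of RNA and say nothing of phosphorylation or of where the proteins are.

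The annotated splice forms of Yap1 and Tead1 differ by whole coding exons, whose sequences are shown because the shares described further on count transcripts with and without them. Each line gives the exon in capitals between 21 bases of the neighbouring exons in lower case, 5′ to 3′ along the transcript, from GENCODE M21 transcripts on GRCm38, the assembly that the deposited notes call mm10. The Yap1 exon of 48 nucleotides is at chr9:7950492-7950539 on the minus strand, and its inclusion lengthens the part of YAP known as the leucine zipper region. The Tead1 exons are on the plus strand of chromosome 7. The first exon of 63 nucleotides is at chr7:112841888-112841950, the second at chr7:112842040-112842102, and both lie in the stretch that encodes the TEA domain. A microexon of 12 nucleotides follows at chr7:112856053-112856064. All 4 have lengths divisible by 3 and so keep the reading frame.
Yap1 exon of 48 nucleotides: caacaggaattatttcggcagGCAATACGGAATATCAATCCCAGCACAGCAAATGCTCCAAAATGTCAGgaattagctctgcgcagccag
Tead1 first exon of 63 nucleotides: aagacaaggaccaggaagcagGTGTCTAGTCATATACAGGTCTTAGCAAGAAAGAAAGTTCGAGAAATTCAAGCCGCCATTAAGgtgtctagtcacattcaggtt
Tead1 second exon of 63 nucleotides: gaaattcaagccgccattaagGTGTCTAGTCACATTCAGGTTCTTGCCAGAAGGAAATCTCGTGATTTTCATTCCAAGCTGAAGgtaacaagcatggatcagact
Tead1 microexon of 12 nucleotides: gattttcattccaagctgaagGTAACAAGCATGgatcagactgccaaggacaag
The pair of Tead1 exons of equal length carried the same base at 44 of 63 positions, 69.8%, when set side by side without gaps.

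The tissue label was checked first. The 7 cardiomyocyte markers, such as Myh6 and Tnnt2, summed to 4593 TPM in replicate 1 and 4786 TPM in replicate 2, where TPM is abundance after division by length, scaled to the same total in each library. Endothelial, macrophage and erythroid markers were present in both. All 6 fibroblast markers were higher in replicate 2, with sums of 386 and 509 TPM in replicates 1 and 2. The 6 smooth muscle and pericyte markers summed to 326 and 665 TPM, with Myh11 at 1.01 and 24.97 TPM. The 6 epicardial markers summed to 44.9 and 73.9 TPM but did not move together. Wt1, Upk1b and Krt19 were 2-fold higher in replicate 2 by TPM, as were 10.1% of all genes averaging at least 1 TPM. By counts scaled to the library total, Krt19 fell short of 2-fold, at a log2 ratio of replicate 1 over replicate 2 of -0.78. Upk1b changed most, at 5.01 and 20.52 TPM. Upk3b at 18.33 and 16.76 TPM and Tbx18 at 4.49 and 3.91 TPM were lower in replicate 2. Genes of tissues outside the heart differed between the libraries, with 4 urothelial markers at 0.40 and 62.3 TPM in sum and 4 thymocyte markers at 3.29 and 0.01 TPM, of which Cd3e had 0 counts in both and Rag1 made most of the sum. The part of this in the values below was not tested. In bulk tissue, fewer cells of a type and less RNA per cell cannot be told apart.

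Of the 10 genes, 9 reached 1 TPM in both replicates, against 24.2% of all genes and 47.1% of protein-coding genes. The exception was Tead4, at 0.84 TPM in replicate 1 and 1.10 TPM in replicate 2, with 197 and 224 expected counts. The 10 genes were chosen with earlier results of these data known, so the contrast with all genes is a description only. Tead4 passed the same cutoff when TPM was rescaled to protein-coding genes, which held 33.3% of TPM in replicate 1 and 33.6% in replicate 2. Mean levels ran from 0.97 TPM for Tead4 to 23.6 TPM for Wwtr1. By mean TPM the order was Wwtr1, Tead1, Tead2, Yap1, Lats2, Sav1, Stk3, Tead3, Lats1 and Tead4. By posterior mean TPM, a second deposited estimate, Lats2 was at 21.38 in replicate 1 and 17.46 in replicate 2. Tead2 was then lower, at 20.49 and 15.47, so the place of Lats2 depended on the estimate. That estimate of Lats2 includes 3.19 and 5.36 TPM for Lats2-204, a transcript of 219 nucleotides with 0 expected counts in both replicates. Of the 9 steps between neighbours, 6 were apart, meaning that both values of the upper gene exceeded both values of the lower one. The steps from Tead1 to Tead2, from Tead2 to Yap1 and from Yap1 to Lats2 were not, so each of these 4 genes overlapped its neighbour among them. The narrowest of the 6 steps were Wwtr1 over Tead1, resting on 23.16 against 22.82 TPM in replicate 1, and Tead3 over Lats1. The last rested on 3.39 against 3.19 TPM in replicate 2. In both cases the deposited intervals of the 2 genes overlapped in that replicate.

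**Figure D1:**
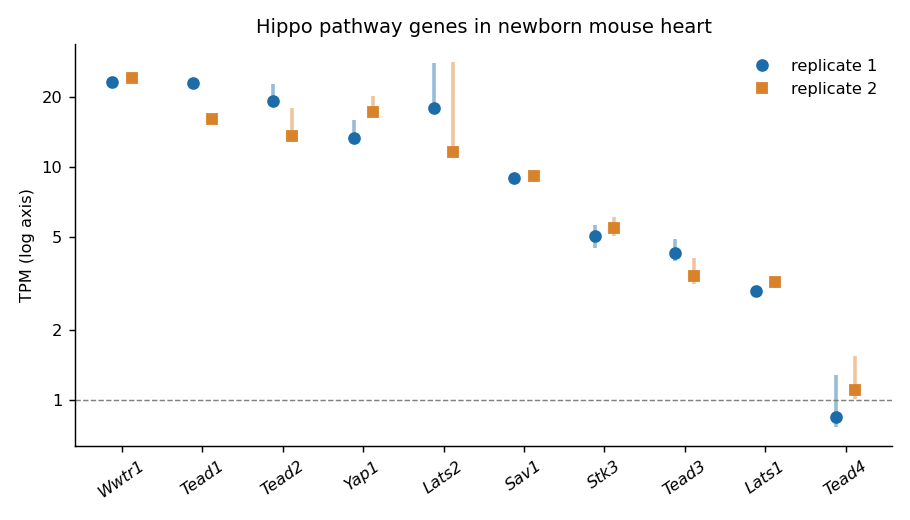
TPM of the 10 genes (log axis) in replicate 1 (circles) and replicate 2 (squares), ordered by mean, with the deposited TPM interval of each library as a vertical line and 1 TPM as a dashed line. Wwtr1 is highest at 23.2 and 24.0 TPM, Tead4 lies around 1 TPM, and the interval of Lats2 in replicate 2 is the widest.

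Genes of the upstream kinase were expressed at moderate levels. Stk3, whose product MST2 starts the kinase cascade, was at 5.03 and 5.48 TPM in replicates 1 and 2 (ENSMUSG00000022329.10, chr15:34875496-35178921). Sav1, the scaffold that brings MST2 to LATS, was at 8.92 and 9.11 TPM (ENSMUSG00000021067.7, chr12:69965012-69987002). Both values of Sav1 lay above both values of Stk3. The gene of the related kinase MST1, Stk4, was at 5.33 and 4.39 TPM, and the log2 ratio of Stk3 to Stk4 was -0.08 in replicate 1 and 0.31 in replicate 2, so by TPM neither gene was the higher in both. In counts not divided by length the ratios were -1.30 and -0.52. Such counts also rise with transcript length, so between different genes they do not compare abundance alone. Mob1a and Mob1b, which encode activators of the LATS kinases, were at 8.94 and 9.25 TPM and at 8.33 and 6.63 TPM.

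Between the LATS kinases, which phosphorylate YAP and TAZ, Lats2 was the more abundant. It was at 17.8 TPM in replicate 1 and 11.6 TPM in replicate 2 (ENSMUSG00000021959.11, chr14:57689662-57758388), with 8021 and 5814 expected counts. Lats1 was at 2.94 and 3.19 TPM (ENSMUSG00000040021.8, chr10:7681214-7716460). Lats2 stood above Lats1 by 2.56 on the log2 scale in replicate 1 and by 1.83 in replicate 2. A ratio was called unequal when it had 1 sign in both replicates and passed in each a limit, which 95% of protein-coding genes within 2-fold of the level of the lower gene stayed below in their own difference between the libraries. For the LATS pair the limit was 2.22, so only replicate 1 passed and the pair was not called, though it was with posterior mean TPM or a pseudocount of 1. The deposited intervals of Lats2 were wide, 17.5 to 27.9 TPM in replicate 1 and 11.5 to 28.1 TPM in replicate 2. Those of its transcript Lats2-204, which had 0 expected counts in both, reached up to 9.53 and 15.9 TPM.

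The coactivator genes were both well expressed. Yap1 was at 13.2 TPM in replicate 1 and 17.2 TPM in replicate 2 (ENSMUSG00000053110.9, chr9:7931999-8004596). Wwtr1 was at 23.2 and 24.0 TPM (ENSMUSG00000027803.10, chr3:57455649-57575910), above both values of Yap1. The log2 ratio of Yap1 to Wwtr1 was -0.81 in replicate 1 and -0.48 in replicate 2, within the limit of 1.36. In counts not divided by length it was -1.33 and -1.40, and the pair was then called, but such counts also rise with transcript length. The lengths used for division were 3079 and 2339 nucleotides for Yap1 and 4407 and 4408 for Wwtr1 in replicates 1 and 2. Summed, Yap1 and Wwtr1 made 36.4 TPM in replicate 1 and 41.2 TPM in replicate 2.

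Tead1 and Tead2 supplied most TEAD RNA. Tead1, whose product is known from mouse knockouts to be needed for heart development, was at 22.8 and 15.9 TPM (ENSMUSG00000055320.12, chr7:112679318-112906807). Tead2 was at 19.1 and 13.5 TPM (ENSMUSG00000030796.11, chr7:45215753-45233644). Tead3 was lower, at 4.25 and 3.39 TPM (ENSMUSG00000002249.13, chr17:28331671-28350817), and Tead4 was lowest (ENSMUSG00000030353.11, chr6:128224288-128300823). As shares of summed TEAD TPM, Tead1 took 48.6% in replicate 1 and 47.0% in replicate 2 and Tead2 took 40.6% and 39.8%. Tead3 took 9.05% and 9.99%, and Tead4 took 1.79% and 3.24%. The 4 shares thus differed by under 2 percentage points between the libraries, while the TEAD sum was 47.0 TPM in replicate 1 and 33.9 TPM in replicate 2.

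Of the 11 gene pairs compared, 4 were called unequal, and 3 of these were TEAD pairs. Tead1 exceeded Tead3 by a log2 ratio of 2.40 in replicate 1 and 2.20 in replicate 2, which is 5.27-fold and 4.60-fold, past the limit of 1.96. Tead1 exceeded Tead4 by 4.61 and 3.74, past a limit of 3.69, the widest among the pairs. Tead2 exceeded Tead3 by 2.139 and 1.963, just past the limit of 1.960. Tead1 over Tead2, at 0.26 and 0.24, was not called. In counts not divided by length the ratios were 1.54 and 1.56 and the pair was called, but such counts also rise with transcript length. The lengths used for division were 4443 and 4703 nucleotides for Tead1 and 1822 and 1880 for Tead2 in replicates 1 and 2. The ratios of Tead2 to Tead4, 4.35 and 3.50, and of Tead3 to Tead4, 2.21 and 1.54, each missed the limit in 1 or both libraries. With 1 limit from all genes averaging at least 1 TPM, the call for Tead2 over Tead3 was lost and that for Tead2 over Tead4 was made, as the last also was with a pseudocount of 1 or posterior mean TPM. A limit at the 99th percentile left no call.

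None of the 10 differed by 2-fold or more by TPM, where 19.0% of all genes averaging at least 1 TPM did, 8.90% higher in replicate 1 and 10.1% higher in replicate 2. Differences are log2 ratios of replicate 1 over replicate 2 with a pseudocount of 0.1 TPM, centred on the median of those genes. By TPM Lats2 differed by 0.64, Tead1 by 0.54 and Tead2 by 0.52, and these 3 were higher in replicate 1 under all 7 alternative scalings, pseudocounts and estimates. With posterior mean TPM, which includes the 0-count form Lats2-204, the value of Lats2 was 0.31, below Tead1 at 0.53 and Tead2 at 0.43. Wwtr1 at -0.03 and Sav1 at -0.01 differed least by TPM. The deposited TPM intervals of the replicates did not overlap for 4 of the 10, namely Yap1, Wwtr1, Tead1 and Tead2, against 73.3% of all genes averaging at least 1 TPM.

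For some genes TPM and counts gave different ratios, and their effective length differed between the libraries. This is the length over which the authors' program divides the counts of a gene, and it depends on the transcripts it assigns. Yap1 had 4292 and 4448 expected counts in replicates 1 and 2, a centred log2 ratio of 0.02 in counts scaled to the library total against -0.35 by TPM. Its effective length was 3079 nucleotides in replicate 1 and 2339 in replicate 2. Tead3 had a ratio of 0.34 by TPM and -0.15 by counts, with lengths of 1749 and 2453 nucleotides. Lats1 also changed sign, from -0.09 by TPM to 0.06 by counts, and the other 7 genes kept theirs under all 7 alternatives. The median absolute difference of the 10 genes was 0.34 by TPM and 0.13 by counts, and that of all genes at a mean of 1 TPM was 0.40 and 0.35.

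**Figure D2:**
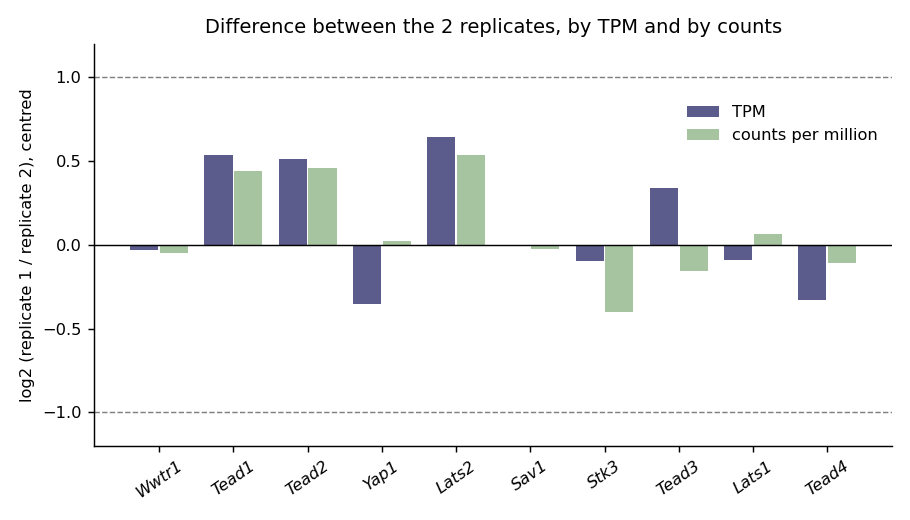
Centred log2 ratio of replicate 1 over replicate 2 for each gene by TPM (dark bars) and by counts scaled to the library total (light bars), with 2-fold as dashed lines. All bars lie within 2-fold, Lats2, Tead1 and Tead2 are positive on both scales, and Yap1, Tead3 and Lats1 change sign between the scales.

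Yap1-202, a coding form without the exon of 48 nucleotides, took 46.2% of the TPM of the gene in replicate 1 and 43.1% in replicate 2. Coding forms with that exon took 21.8%, all Yap1-201, in replicate 1 and 17.9%, all Yap1-210, in replicate 2. Yap1-201 and Yap1-210 share the exon and differ elsewhere, with lengths of 4171 and 1193 nucleotides. The other large share was that of Yap1-204, annotated as a target of nonsense-mediated decay, at 29.4% and 36.9% of TPM. In replicate 1 its TPM of 3.88 had a wide deposited interval, 0.82 to 4.05, and a posterior mean of 2.47. In replicate 2 its TPM of 6.33 had an interval of 5.07 to 6.92. Because Yap1-204 is short, its share of expected counts was less, at 10.9% in replicate 1 and 18.0% in replicate 2.

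Among coding Yap1 transcripts, those that include the exon of 48 nucleotides held 32.1% of TPM in replicate 1 and 29.4% in replicate 2, a mean of 30.7 ± 1.90%. Over expected counts in place of TPM the share was 32.4% in replicate 1 and 8.95% in replicate 2, since the short Yap1-210 had 308 counts and the long Yap1-201 had 1182. The share with the exon therefore held within 3 percentage points between libraries by TPM and not by counts. Exon 4, of 114 nucleotides, which is known from human YAP1 to encode the second WW domain, was held at least in part by all 3 annotated coding transcripts. A form of YAP with 1 WW domain thus could not be measured in these tables.

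Tead1 was divided among many transcripts, and the division differed between the libraries. Of its 14 transcripts, 7 had a TPM above 0 in each replicate, and 6 had one in 1 replicate only. Tead1-202 led in replicate 1 with 26.0% of TPM, against 13.2% in replicate 2. Tead1-201, the longest at 9964 nucleotides, led in replicate 2 with 23.9%, against 14.4% in replicate 1. Tead1-206 was at 17.5% in replicate 1 and 0% in replicate 2, and Tead1-204 was at 0% and 20.6%. In expected counts the long forms held more, with Tead1-202 at 53.7% and 25.8% and Tead1-201 at 31.3% and 49.1%, while Tead1-206 was at 4.76% and 0%. Coding transcripts together made 90.5% and 93.9% of the TPM of Tead1.

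**Figure D3:**
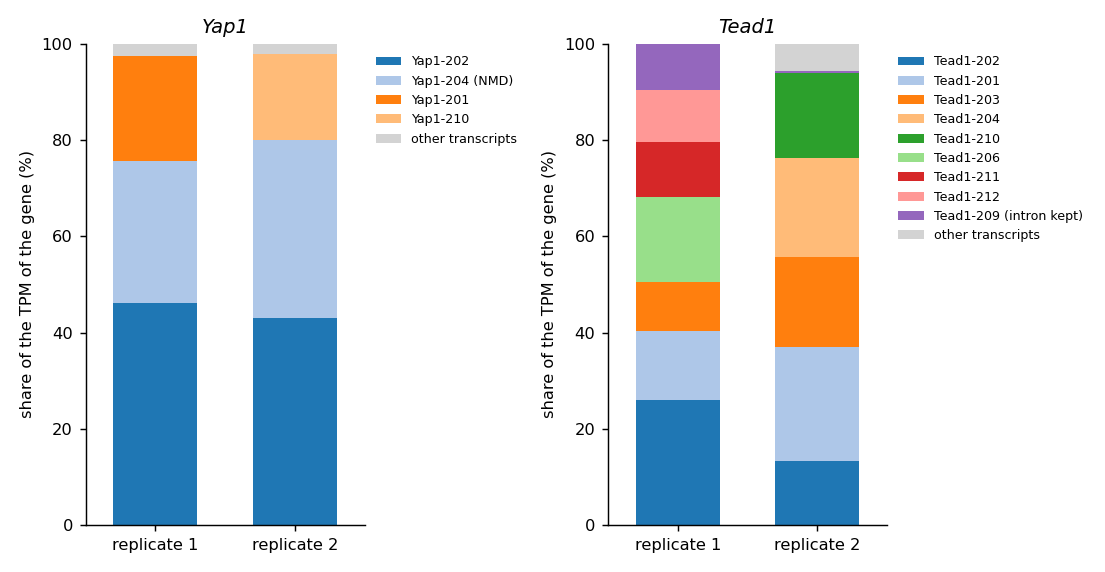
Share of the TPM of Yap1 (left) and Tead1 (right) in each transcript with a mean share of 5% or more, stacked for replicates 1 and 2, with the remainder in grey. Yap1-202 holds 46.2% and 43.1% in replicates 1 and 2, while Tead1-206 and Tead1-204 each appear in 1 replicate alone.

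Tead1 transcripts were also grouped by the exons they hold. Coding forms with the second exon of 63 nucleotides made 87.2% of TPM in replicate 1 and 81.2% in replicate 2. Forms with the first exon of 63 nucleotides made 35.3% and 25.4%, and every form at a TPM above 0 that held the first also held the second. Forms with the second exon alone made 52.0% and 55.7%, and forms with neither made 12.8% and 18.8%. Expected counts gave 36.3% and 49.5% for the first exon and 97.6% and 96.6% for the second. The microexon of 12 nucleotides differed more, at 47.2% of TPM in replicate 1 and 66.2% in replicate 2, and likewise in counts at 38.2% and 65.0%. An exon of 174 nucleotides farther along the gene (chr7:112876075-112876248) was in 88.0% and 100% of TPM, the rest being Tead1-212. In expected counts its shares were 98.1% and 100%. These shares are estimates from the assignment of reads to whole transcripts, not counts of junction reads.

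**Figure D4:**
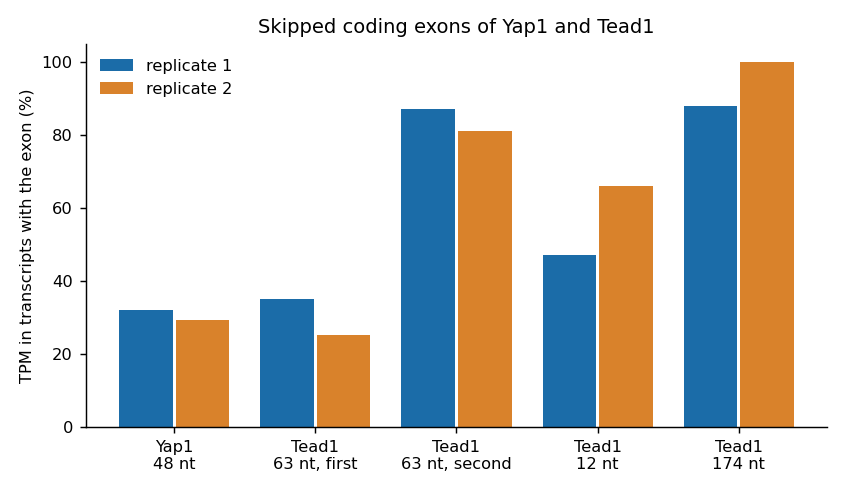
Percent of the TPM of coding transcripts that include each skipped exon of Yap1 and Tead1, for replicate 1 (left bar) and replicate 2 (right bar). The second exon of 63 nucleotides of Tead1 is in 87.2% and 81.2%, and the microexon of 12 nucleotides differs most, at 47.2% and 66.2%.

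The transcripts of the other genes also varied between the libraries, some more than others. The leading transcript was the same in both replicates for 7 of the 10 genes and different for Tead1, Tead3 and Tead4. Wwtr1-201 held 99.6% and 99.8% of the TPM of Wwtr1, and Sav1 had 1 transcript. Tead3 was led by Tead3-201 with 57.3% in replicate 1, where Tead3-205 was at 0%, and by Tead3-205 with 84.4% in replicate 2, where Tead3-201 was at 0%. In Lats2 the coding Lats2-201 had 67.0% and 90.4%, and Lats2-209, annotated as a target of nonsense-mediated decay, had 24.8% in replicate 1 and 0% in replicate 2. Tead2-201 had 94.3% and 65.9%. Stk3-204, also annotated for decay, had 28.5% and 7.88% of the TPM of Stk3, from 73.2 and 23.2 expected counts.

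Genes that act above the kinases were mostly expressed. Of 22 upstream genes, 17 reached 1 TPM in both replicates. The highest were Map4k4 at 30.9 ± 4.50 TPM, a kinase that can phosphorylate LATS, the giant cadherin Fat1 at 17.2 ± 2.72, Map4k2 at 14.3 ± 1.51, Map4k5 at 14.0 ± 1.04 and Nf2, which encodes the scaffold merlin, at 13.9 ± 1.29. Those that did not reach 1 TPM in both were Wwc1, Dchs2, Taok3, Map4k1 and Crb3, a set named after its values were seen, with Map4k1 under 0.1 TPM in both. Dlg5, a polarity scaffold, was at 7.61 TPM in replicate 1 and 3.26 TPM in replicate 2, 2-fold apart by TPM at 1.22 but at 0.38 by counts. All 13 genes of the STRIPAK phosphatase complex, which removes phosphate from the MST kinases, and of LIM proteins that bind LATS were detected. They were led by Ppp2r1a, a scaffold subunit of protein phosphatase 2A, at 90.4 ± 6.94 TPM, Slmap at 51.6 ± 18.5, Strip2 at 41.2 ± 4.67, Strn4 at 36.2 ± 3.30 and Limd1 at 35.1 ± 2.50.

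Genes that bind YAP or mark it for degradation were detected in 14 of 15 cases. Ctnna1, the alpha-catenin of cell junctions, was at 62.0 ± 4.25 TPM, and the 14-3-3 genes Ywhaq and Ywhah, whose products hold phosphorylated YAP in the cytoplasm, were at 56.4 ± 1.86 and 43.2 ± 12.2. The kinase gene Csnk1e was at 47.2 ± 4.20 TPM and Amotl2, an angiomotin that binds YAP, at 44.1 ± 19.0. The 1 gene below 1 TPM in a replicate was Sfn, an epithelial 14-3-3 gene, at 0.67 TPM in replicate 1 and 1.79 TPM in replicate 2, 2-fold apart. The 4 urothelial markers moved the same way, and their part in Sfn was not tested. Among the TEAD cofactors of the Vestigial-like family, Vgll4, a repressor of YAP and TEAD, was at 13.1 and 13.0 TPM. Vgll3 was at 0.42 and 0.73 TPM, and Vgll4 exceeded it by 4.66 and 3.98 on the log2 scale, past the limit of 3.57. The call was lost in counts not divided by length, which also rise with transcript length. Vgll1 and Vgll2 had 0 counts in both replicates, which by counting error alone allows up to 3 counts in each.

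Of 22 genes known as YAP and TEAD targets, mainly from human cell lines and including Lats2, 18 reached 1 TPM in both replicates. The highest was Ankrd1, which encodes a cardiac ankyrin repeat protein and is also a cardiomyocyte gene, at 231 TPM in replicate 1 and 164 TPM in replicate 2. Ccn2, a matrix protein often used as a readout of YAP, was at 97.9 and 69.9 TPM, and Amotl2 at 57.5 and 30.6 TPM. Ccn1, a matrix protein used likewise, was at 23.9 TPM in both, and Rbms3 was at 12.2 and 19.9 TPM. The 4 not detected in both were Nuak2, Dock5, Fjx1 and Foxf2, named after their values were seen, with Foxf2 at 0 counts. Fjx1 was 2-fold apart, at 1.85 and 0.71 TPM. The median difference of the 19 targets at a mean of 1 TPM was 0.06 by TPM and 0.30 by counts. The median of all such genes is 0. By TPM, 11 targets were higher in replicate 1 and 8 were higher in replicate 2. Of the 8, Axl and Tgfb2 were higher in replicate 1 by counts.

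Over the 6 pathway lists, some of which share genes, 63 of 76 genes were detected in both replicates, against 24.2% of all genes and 47.1% of protein-coding genes. The lists too were chosen with earlier results of these data known, so this contrast is a description only. Of the 65 genes at a mean of 1 TPM, 3 were 2-fold apart, namely Dlg5, Sfn and Fjx1, where 19.0% of all such genes were. List medians ranged from 0.03 for the TEAD cofactors, which had 1 gene at that level, to 0.30 for the kinase partners.

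**Figure D5:**
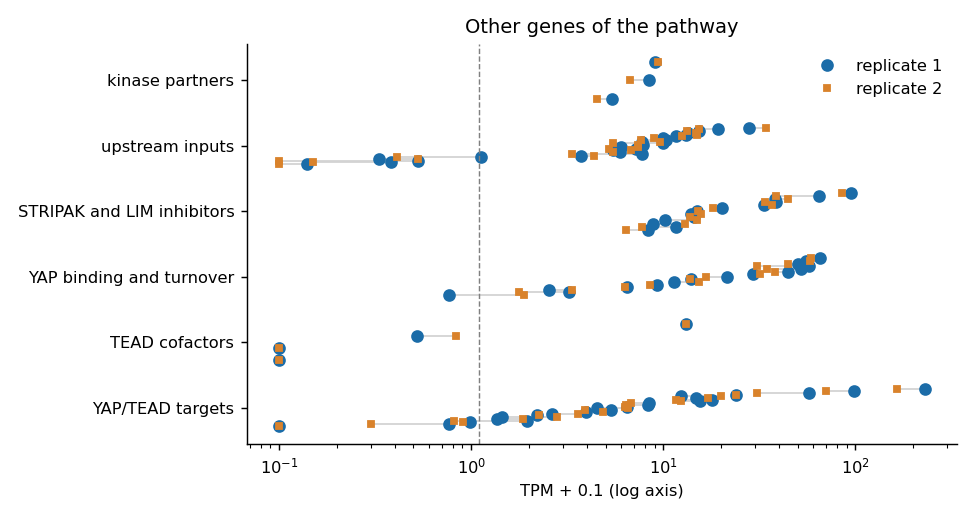
TPM plus 0.1 (log axis) of each gene of the 6 pathway lists in replicate 1 (circles) and replicate 2 (squares), joined by a line, with 1 TPM as a dashed line. Most genes lie above 1 TPM, Ankrd1 is highest at 231 and 164 TPM, and Vgll1, Vgll2 and Foxf2 are at 0.

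The promoters of the targets were searched for the core of the DNA motif bound by TEAD proteins, CATTCC, on both strands, in the 250 bases before each transcription start of the RefSeq table on GRCm38.p6. At least 1 match was found for 7 of the 16 target genes in the table, 43.8%, and for 4 of the 7 pathway genes in it (Yap1, Wwtr1, Tead3 and Sav1), against 14.4% of all 27025 genes and 12.6% of all 32851 promoters. The targets were listed because they are known as YAP and TEAD targets, so their share is not an independent test. A gene was counted for a match in any of its promoters, of which Tead3 had 3 and Wwtr1 had 2. Of the 5 highest targets, Ankrd1, Amotl2 and Ccn1 had a match, Rbms3 had none and Ccn2 was not searched. The promoters of Ccn1 and Ankrd1 are shown as examples, with the matches in capitals, read along the gene. The Ccn1 match starts 103 bases before the transcription start (chr3:145649986-145650235, minus strand). The Ankrd1 matches start 210 and 123 bases before it on the opposite strand and read GGAATG (chr19:36119845-36120094, minus strand). A match is a description of the letters and not a measured binding site.
Ccn1 promoter: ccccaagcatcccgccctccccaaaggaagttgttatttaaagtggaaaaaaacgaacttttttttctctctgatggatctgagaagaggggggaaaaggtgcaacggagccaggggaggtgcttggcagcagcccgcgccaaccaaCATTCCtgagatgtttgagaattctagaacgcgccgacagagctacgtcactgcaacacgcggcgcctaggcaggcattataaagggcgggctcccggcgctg
Ankrd1 promoter: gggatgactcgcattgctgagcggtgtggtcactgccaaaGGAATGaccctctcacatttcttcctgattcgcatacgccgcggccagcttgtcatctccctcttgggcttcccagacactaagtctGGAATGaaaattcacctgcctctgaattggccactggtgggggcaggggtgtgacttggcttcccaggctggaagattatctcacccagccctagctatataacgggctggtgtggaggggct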

How the data were processed

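Total RNA from 2 newborn heart isolates was quantified per gene and per transcript. Per the file headers the columns are those of the program RSEM, and the notes deposited with them name the assembly mm10 and GENCODE M4. The sources used here name no aligner, program version or interval level. The authors deposited expected counts, which are estimated fragments per gene with no normalization between libraries. Deposited TPM and FPKM values were divided by effective length and scaled within a library by the authors. The deposited percent is the share of a gene's TPM in a transcript, and the deposited interval bounds bracket a posterior TPM signal. Of 69691 entries per gene table, 43346 were genes. The remaining entries, such as spike-ins, took 1.74% of counts in replicate 1 and 1.98% in replicate 2 and were left out.

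Symbols came from GENCODE M21 for 42462 genes, matched without version. Detection was 1 TPM in both replicates. Differences used a pseudocount of 0.1 and a filter at a mean of 1 TPM. Named genes were the 10 members, the 11 pairs, up to 5 genes of highest mean TPM per list, those under 0.1 TPM in both replicates or 2-fold apart, and transcripts with a mean share of 5% or more. The members and lists were chosen with earlier results of these data known. Exon shares used coding transcripts that span and include or lack an internal coding exon. Calls of 2-fold differences were tested on counts simulated with random seed 20. These held counting error only and the same lengths in both libraries, so spread between isolates and shifts of length were not covered. The calculation of exon shares was checked on 1 made-up gene, and pair calls were not tested. Annotated genes overlap some of the 10 on the opposite strand. Of these, Atl1 at Sav1 had 391 and 312 counts and a noncoding gene at Tead1, 2310014F06Rik, had 104 and 0, and whether strand was used in counting was not stated. The software was Python 3.11.15, numpy 2.4.6, pandas 2.3.3 and matplotlib 3.10.9, with edgeR 4.0.16 (R 4.3.3) for TMM factors, for which expected counts were rounded to integers.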

Additional observations from a re-analysis of the deposited data

How the results depend on the processing

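Of 130 values recomputed under alternatives, 122 stayed within a set margin and 8 did not. The margin was 1.5 times for counted results and the SD between replicates for exon shares. For medians it was the SD of single-gene differences over all genes averaging at least 1 TPM, which is wide for a median. The target median thus counted as unmoved at 0.06 by TPM and 0.30 by counts. Leaving out 1 replicate could not move an exon share past its margin, so 122 does not measure stability. The 10 genes counted as 2-fold apart numbered 0 under all 7 alternatives. Detection ranged from 7 of 10 at 5 TPM to 10 of 10 at 0.5 TPM, and target detection was 11 at 5 TPM. All 10 genes also passed at 1 FPKM and at 1 TPM rescaled to protein-coding genes. Genes of the pathway lists 2-fold apart numbered 1 with a pseudocount of 1 and 7 with no filter, where 3 was reported. In counts not divided by length they numbered 4, beside 14.5% of all genes averaging at least 1 TPM. Amot at 1.09 and Gadd45a at -1.27 then joined, and Dlg5 at 0.38 was lost. Pairs called unequal numbered 0 with the 99th percentile and 4 to 6 when either replicate was left out. They numbered 5 in counts not divided by length, where Yap1/Wwtr1 and Tead1/Tead2 joined and Vgll4/Vgll3 was lost. Such counts also rise with transcript length, so these changes need not reflect abundance. The share with the Yap1 exon was 20.4% over all spanning transcripts and 20.7% in expected counts. In expected counts the first and second Tead1 exons of 63 nucleotides had means of 42.9% and 97.1%. The cause was not tested. Of 42 list medians under alternatives, 4 changed sign, 3 of them the TEAD cofactors and 1 the upstream genes. No paired analysis was possible because the series has 1 group. With 2 libraries, precision was limited by their number.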
